A study of Oryza sativa with 18 samples.

Results

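The leaf below the rice panicle, the flag leaf, was compared between the stages labelled 5DAF and 15DAF in the wild type (WT) of a series on flag leaf photosynthesis during grain filling. The comparison rests on 6 of the 18 RNA-seq libraries, 3 at each stage, picked by their labels for genotype and stage. The plants of all groups grew in a paddy field, RNA came from whole flag leaves, and the labels do not expand DAF. The other 12 libraries came, at the same stages and again with 3 per group, from the mutant line Ospho1;2-Ko1 (Ko1) and the overexpression line OsPHO1;2-OE (OE). The labels name 1 line of each kind and give neither the kind of mutation nor the promoter of the transgene. Nothing in the labels says whether the 3 libraries of a group came from separate plants, so each p-value reflects the scatter among the libraries alone, which may be technical.

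The flag leaf supplies much of the sugar that fills the rice grain, and as the grain matures it hands on its nitrogen and phosphorus too. In an ageing leaf the chloroplasts are dismantled in order: chlorophyll is stripped from its binding proteins and broken down, stromal proteins are degraded by proteases, and glutamine made by cytosolic glutamine synthetase carries the nitrogen out. PHO1;2, the gene altered in the other 2 genotypes, encodes a phosphate exporter. Bulk RNA from a whole leaf gives relative levels, so fewer cells of a type and less RNA per cell cannot be told apart.

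The 6 WT libraries held between 13622835 and 18264909 gene-assigned counts. Levels are given as CPM, each count scaled to its library size after trimmed-mean (TMM) adjustment, with values listed in replicate order 1, 2, 3. A gene is called changed where edgeR's quasi-likelihood test over all genes gave a Benjamini-Hochberg adjusted p under 0.05, and log2 fold changes are 15DAF over 5DAF with their standard errors (SE). Each SE is approximate, computed as the absolute log2 fold change over the square root of the test's F statistic. Leaf markers were abundant at both stages: per length, RbcS3 of the Rubisco small subunit lay between 1563 and 4858 FPKM and the light-harvesting gene Lhcb1.1 between 2152 and 3506 FPKM. Of 7 developing grain markers, NF-YB1 was listed at 0 in all 6 libraries, and the glutelin gene GluA1 lay at 0.69, 0.46 and 0.928 CPM at 5DAF, against 0.926, 0.612 and 0.0542 CPM at 15DAF. Summed over the 5 tested markers, the level was 16.5 to 22.4 CPM at 5DAF and 17.5 to 20.1 CPM at 15DAF. Some members thus lay higher. A single WT library stands apart: 5DAF replicate 3 correlated over log2 CPM at a mean r of 0.936 with its own group and 0.960 with the Ko1 5DAF libraries, against 0.980 to 0.981 within the 15DAF group. In it the phosphate-starvation RNA IPS1 stood at 199.98 CPM, and at 0 and 0.0766 CPM in the other 5DAF libraries. Counts of calls and the fold changes of most named genes are therefore given with all libraries and again for the reduced fit, which leaves that library out.

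PHO1;2 itself (LOC_Os02g56510, chromosome 2, 34609408 to 34615666 in the coordinates of the deposited table, whose rice build is not given in the sources used here) was low in WT leaves. It measured 1.72, 3.52 and 2.25 CPM at 5DAF, against 1.78, 2.58 and 3.25 CPM at 15DAF, and the stages overlapped. The log2 fold change was 0.03 ± 0.52 (SE; adjusted p = 0.975). In the OE libraries it measured 5.91, 8.89 and 9.74 CPM at 5DAF, against 17.995, 4.75 and 29.5 CPM at 15DAF, and in Ko1 3.38, 2.78 and 1.102 and 6.1001, 6.14 and 6.07 CPM. The OE libraries thus lay above all WT libraries of their stage. A transcript count does not check the Ko1 label, since the mutation is not described.

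Between 5DAF and 15DAF, 19 of 33 light-reaction genes fell in the wild-type flag leaf, as did 5 of 16 chlorophyll synthesis genes. The chlorophyll breakdown genes SGR, PAO and NYC3 rose, as did 3 early light-induced genes, PsbS1, 27 of 101 heat shock protein genes, the cytosolic glutamine synthetase GS1;1 and the sucrose-phosphate synthase SPS1. Other members of their lists fell: 2 of 10 senescence and chlorophyll breakdown genes and 2 of 11 nitrogen genes were called lower. So were 5 of the heat shock protein genes and 1 of 25 starch and sucrose genes. Of 20437 genes tested, 3418 (16.7%) were called, 1548 higher (7.57%) and 1870 lower (9.15%) at 15DAF. At least a 2-fold change was seen in 840 of the higher and 1258 of the lower genes, and the median log2 fold change of the called genes was 1.07 upward and -1.31 downward. Over all genes tested the median was -0.02. The stages did not overlap in 1536 of the 1548 higher and 1764 of the 1870 lower genes. A lack of overlap therefore adds little to a call. Without 5DAF replicate 3, 3114 of 20900 genes were called (14.9%), 1310 higher (6.27%) and 1804 lower (8.63%). Both fits called 2550 of the same genes in the same direction, which is 74.6% of the first set and 81.9% of the second, and 0 in opposite directions. The count fell to 2080 without 15DAF replicate 1 and to 1907 without 15DAF replicate 2, and 1628 calls were made in every one of the 6 fits that leave out 1 WT library.

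**Figure D1:**
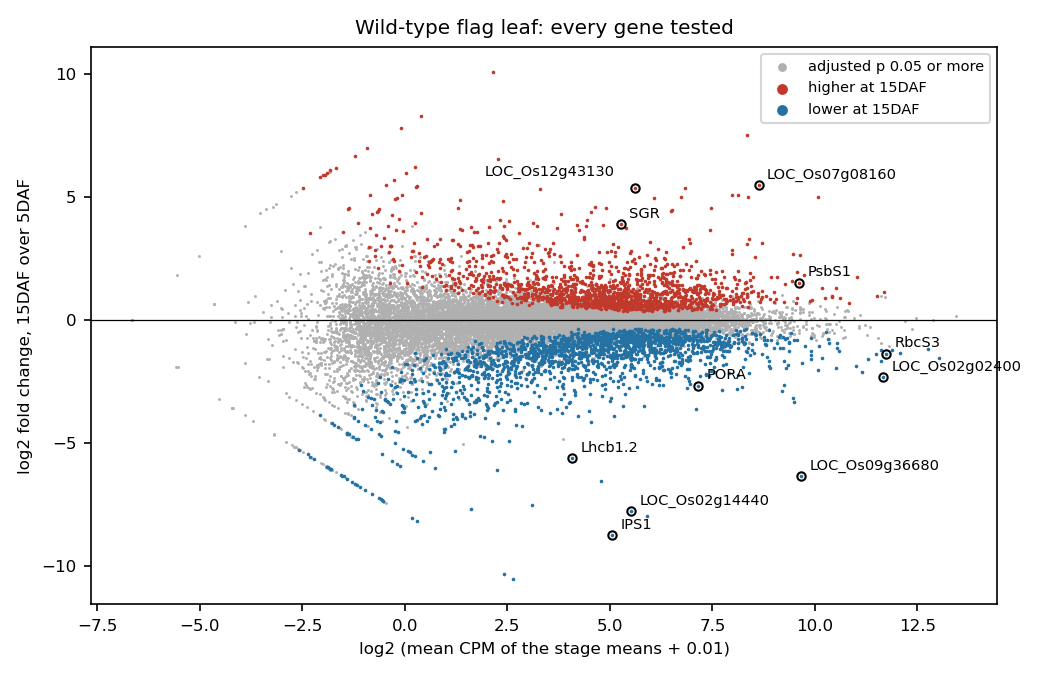
Each point is 1 of the 20437 genes tested in the wild-type flag leaf; the x axis is the log2 of the mean of the 2 stage means in CPM plus 0.01, and the y axis the log2 fold change of 15DAF over 5DAF. Red points are the 1548 genes called higher and blue points the 1870 called lower; the early light-induced gene LOC_Os07g08160 lies near the top at high level, and the straight lines of points at low level are genes with no counts in 1 stage.

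Most genes of the photosynthetic light reactions fell. Of 33 tested, 19 were called lower and 1 higher with all libraries, against a background of 9.15% lower and 7.57% higher, and 23 lower and 1 higher without 5DAF replicate 3. The list's median log2 fold change was -1.05, set against -0.02 over all genes, and 29 of the 33 lay below 0. The list held 7.07, 6.63 and 5.02% of all counts in the 5DAF libraries and 3.83, 3.33 and 4.16% in the 15DAF libraries, so the stages did not overlap, and replicate 3 was the lowest of the 5DAF libraries.

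PsbO, the manganese-stabilising protein of the oxygen-evolving complex, measured 5494, 5266 and 3642 CPM at 5DAF, against 1579, 1302 and 1630.5 CPM at 15DAF. All 3 early libraries lay above all late ones, with a log2 fold change of -1.67 ± 0.26 (adjusted p = 0.000319; -1.86 without replicate 3). PsbQ, of the same complex, fell from 992, 1036 and 1022 to 205, 276 and 375 CPM (log2 -1.83 ± 0.27, adjusted p = 0.000231; reduced fit -1.85, adjusted p = 0.000522), and here 5DAF replicate 3 was as high as its group. PsbP, another extrinsic subunit, fell by 1.54 on the log2 scale (adjusted p = 0.00363). In photosystem I, PsaG, a subunit next to the light-harvesting belt, went from 869.7, 821 and 532 to 206, 175 and 228 CPM with no overlap (log2 -1.87 ± 0.31, adjusted p = 0.000571; reduced fit -2.08, adjusted p = 0.000397). PsaE and PsaH, on the stromal side and at the docking site of the mobile antenna, fell by 1.676 and 1.602 on the log2 scale (adjusted p = 3.78e-05 and 0.000331).

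The antenna genes were uneven. Lhcb6, encoding the minor antenna protein CP24, fell from 1289, 1076 and 638 to 286, 214 and 277 CPM (log2 -1.95 ± 0.39, adjusted p = 0.00253; reduced fit -2.21, adjusted p = 0.00138). Lhcb4, another minor antenna protein, fell from 4886, 3917 and 2477 to 1312, 1028 and 1387 CPM (log2 -1.598 ± 0.33, adjusted p = 0.00294; reduced fit -1.85, adjusted p = 0.0012), and Lhca1 of the photosystem I antenna from 5562, 4519 and 2417 to 1668, 1414 and 1707 CPM (log2 -1.38 ± 0.303, adjusted p = 0.00446; reduced fit -1.68, adjusted p = 0.000679). In both, 5DAF replicate 3 was the lowest early library and still lay above every late one. The major trimeric antenna genes did not follow one course. Lhcb1.2 fell from 24.01, 24.9 and 50.2 to 0.926, 0.544 and 0.542 CPM (log2 -5.63 ± 0.72, adjusted p = 6.37e-05; reduced fit -5.21, adjusted p = 0.000184), whereas Lhcb1.1 measured 5603, 5669 and 2979 and 4805, 3991 and 5074 CPM with overlap and was not called (log2 -0.04 ± 0.32, adjusted p = 0.953; reduced fit -0.31, adjusted p = 0.585). Lhcb1.3 was called with all libraries (log2 -1.23, adjusted p = 0.0348) and without 5DAF replicate 3 (adjusted p = 0.0425), but not without any other 1 WT library, where adjusted p lay between 0.0577 and 0.146. These Lhcb1 copies are close paralogues, so their counts depend on how the authors' counting split shared reads, which is not given in the sources used here. Lhca4, PsaL, Lhcb2 and AtpC were called only once replicate 3 was left out (adjusted p = 0.068, 0.0724, 0.137 and 0.103 with it, 0.00931, 0.0097, 0.0305 and 0.0328 without).

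The electron carriers near the end of the chain gave no call. The Rieske protein gene PetC (log2 -0.06), the ferredoxin gene Fd1 (log2 0.24) and both ferredoxin-NADP reductase genes, FNR1 and FNR2 (log2 0.04 and 0.06), had adjusted p between 0.846 and 0.923. The single gene of the list that rose was PsbS1, encoding the photosystem II subunit that triggers the dissipation of excess light as heat. PsbS1 measured 439.7, 475 and 320.03 CPM at 5DAF, against 1152, 1147 and 1199.6 CPM at 15DAF. The late libraries lay within a narrow band far above the early ones, and the log2 fold change was 1.503 ± 0.21 (adjusted p = 0.000149; 1.33 and 0.000865 without replicate 3).

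**Figure D2:**
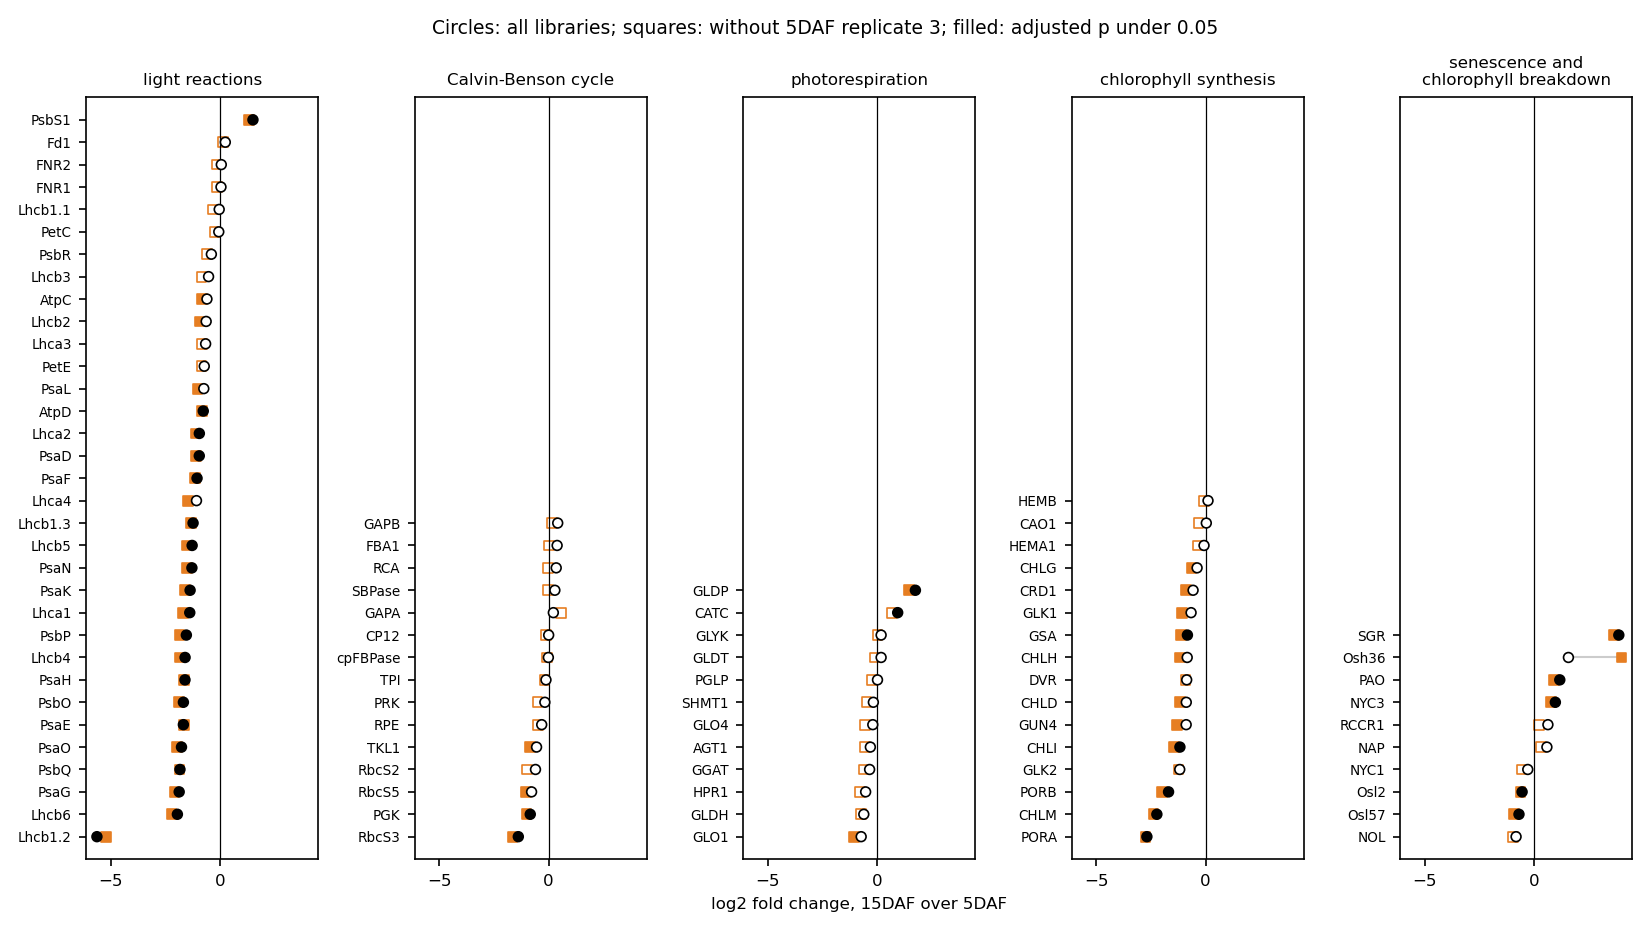
Each row is a tested gene of 5 lists, named at the left of its panel; the x axis is the log2 fold change of 15DAF over 5DAF. Circles are the fit with all libraries and orange squares the fit without 5DAF replicate 3, filled where adjusted p was under 0.05; 29 of 33 light-reaction genes and 14 of 16 chlorophyll synthesis genes lie left of 0, with PsbS1 and SGR on the right.

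The carbon fixation and photorespiration lists are short, and 2 genes of each were called with all libraries. Of 15 Calvin-Benson cycle genes, 2 were called lower (13.3%, against 9.15% over all genes) and 0 higher with all libraries. Without 5DAF replicate 3 there were 4 lower (26.7%, against 8.63% over all genes). The lower count was 1 without 5DAF replicate 1, 5DAF replicate 2, 15DAF replicate 2 or 15DAF replicate 3. The median was -0.12. DESeq2 called 3 lower and 0 higher. RbcS3, encoding the small subunit of Rubisco, fell from 5717, 5907 and 3107 to 1992, 1687 and 1974 CPM (log2 -1.38 ± 0.28, adjusted p = 0.00235; reduced fit -1.65, adjusted p = 0.000455), with 5DAF replicate 3 the lowest early library. Its close paralogues RbcS5 and RbcS2 had log2 -0.78 and -0.597 (adjusted p = 0.0622 and 0.32), and RbcS5 was called only without replicate 3 (adjusted p = 0.0187). PGK, phosphoglycerate kinase, had log2 -0.84 (adjusted p = 0.0213; reduced fit -1.01, adjusted p = 0.0121), a call lost without 5DAF replicate 1 or 2 or 15DAF replicate 2 or 3 (adjusted p = 0.0817, 0.0524, 0.0977 and 0.0639). Rubisco activase RCA was not called and varied most at 5DAF, with 1442, 2450.5 and 625 CPM against 1989, 1910.02 and 1858 CPM later (adjusted p = 0.572).

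Of 12 photorespiration genes, 2 were called higher (16.7%, against 7.57% over all genes) and 0 lower. The median log2 fold change was -0.18, with 7 of the 12 below 0. Without 5DAF replicate 3 the median was -0.51, with 9 below 0. GLDP, the glycine-decarboxylating subunit of the mitochondrial glycine cleavage system, rose from 1196, 1077 and 587 to 3210.2, 3366 and 3057 CPM (log2 1.75 ± 0.26, adjusted p = 0.00022; reduced fit 1.47, adjusted p = 0.000699), with every late library above every early one. CATC, a peroxisomal catalase, had 2401, 2299 and 1278 and 3827, 3825 and 3834 CPM (log2 0.94, adjusted p = 0.0298; reduced fit 0.68, adjusted p = 0.122). Its call was lost without 5DAF replicate 3 (adjusted p = 0.122) and without 15DAF replicate 1, 2 or 3 (adjusted p = 0.089, 0.0904 and 0.0763), which leaves 1 higher gene in each of those fits. Without replicate 3, the glycolate oxidase gene GLO1 was called lower (log2 -1.04, adjusted p = 0.00594; -0.73 and 0.0791 with all libraries).

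Of 16 chlorophyll synthesis genes tested, 5 were called lower (31.2%, against 9.15% over all genes) and 0 higher, 14 lay below 0, and the median log2 fold change was -0.85. Without 5DAF replicate 3 the count was 11 lower and 0 higher with a median of -1.14, and without 15DAF replicate 2 it was 3. PORA, a light-dependent protochlorophyllide reductase, fell from 262, 241 and 233 to 28.6, 36.4 and 49.6 CPM (log2 -2.68 ± 0.56, adjusted p = 0.0032; reduced fit -2.74, adjusted p = 0.00529). Here the 3 early libraries were close to each other, replicate 3 included. PORB, the other reductase, fell from 955, 763 and 431 to 236, 181 and 248 CPM (log2 -1.69 ± 0.36, adjusted p = 0.00356; reduced fit -1.98, adjusted p = 0.0013). CHLM, which methylates magnesium-protoporphyrin, went from 50.4, 39.9 and 33.5 to 10.5, 4.96 and 10.9 CPM (log2 -2.22 ± 0.48, adjusted p = 0.00398; reduced fit -2.38, adjusted p = 0.00492). None of these 3 genes overlapped between stages, as held for nearly all called genes.

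The magnesium chelatase, at the branch from haem to chlorophyll, has 3 subunits and an activator. Its ATPase subunit CHLI fell from 334, 342 and 184 to 116, 115 and 150.2 CPM (log2 -1.17 ± 0.29, adjusted p = 0.00973; reduced fit -1.43, adjusted p = 0.00249; 0.0507 without 15DAF replicate 2). The other subunits CHLH and CHLD and the activator GUN4 had log2 between -0.89 and -0.84, and were called only without 5DAF replicate 3 (log2 -1.16, -1.16 and -1.31; adjusted p = 0.00379, 0.0291 and 0.00551). The same held for GLK1, a transcription factor that drives chloroplast genes, with 207, 198 and 62.7 CPM at 5DAF, against 99.2, 103 and 93.6 CPM at 15DAF (adjusted p = 0.271, and 0.035 without replicate 3). For each of these 4 genes replicate 3 was the lowest early library. HEMA1, HEMB and CAO1 were not called in either fit (log2 -0.07, 0.11 and 0.03 with all libraries).

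SGR, PAO and NYC3, which break down chlorophyll, rose. Of 10 tested senescence and chlorophyll breakdown genes, 3 were called higher and 2 lower, against 7.57% and 9.15% over all genes, with a median of 0.61, and 4 higher and 2 lower of 11 without 5DAF replicate 3. Leaving out 5DAF replicate 2 gave 5 higher and 0 lower, and leaving out 5DAF replicate 1, 15DAF replicate 1 or 15DAF replicate 2 gave 1 lower. SGR, the stay-green magnesium dechelatase that starts chlorophyll degradation, rose from 1.52, 10.04 and 3.31 to 62.8, 79.8 and 73.1 CPM (log2 3.87 ± 0.51, adjusted p = 7.81e-05; 3.64 without replicate 3). All 3 late libraries were several times above the highest early one. PAO, pheophorbide a oxygenase, which opens the chlorophyll ring, rose from 73.9, 98.4 and 45.3 to 153, 162 and 177 CPM (log2 1.18 ± 0.22, adjusted p = 0.00159; reduced fit 0.91, adjusted p = 0.00459). NYC3, a plastid hydrolase of the same pathway, rose from 301, 397 and 217 to 568, 572 and 656 CPM (log2 0.97 ± 0.23, adjusted p = 0.00759; reduced fit 0.76, adjusted p = 0.0365).

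No rise was called in chlorophyll b reduction: NYC1 and NOL, the 2 reductase subunits, had log2 -0.29 and -0.82 (adjusted p = 0.539 and 0.0685). NAP, a NAC transcription factor of leaf senescence, measured 42.2, 61.2 and 26.6 and 60.99, 57.9 and 76.2 CPM and was not called (adjusted p = 0.089; 0.00827 without 5DAF replicate 2). Among rice genes first described from senescing leaves, Osl57 had log2 -0.69 (adjusted p = 0.0256; reduced fit -0.92, adjusted p = 0.00207), a call lost without 5DAF replicate 1 or 2 or 15DAF replicate 1 or 2 (adjusted p = 0.0937, 0.0923, 0.0924 and 0.0835). Osl2 had log2 -0.55 (adjusted p = 0.0139; reduced fit -0.62, adjusted p = 0.0121; 0.0698 without 5DAF replicate 2). Osh36 was called higher only without replicate 3 (log2 3.99, adjusted p = 0.0134), on 0.069, 0.0766 and 1.13 CPM at 5DAF, against 1.28, 1.16 and 1.46 CPM at 15DAF.

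Early light-induced proteins are chlorophyll-binding relatives of the antenna that accumulate under light stress and during plastid transitions. Of 6 listed genes 5 were tested, and 3 were called higher and 0 lower in both fits and in every fit that left out a WT library. With all libraries, 7.57% of all genes were called higher and 9.15% lower. LOC_Os07g08160 (chromosome 7, 4145912 to 4146866) rose from 14.9, 29.8 and 7.95 to 639, 727 and 953 CPM (log2 5.46 ± 0.58, adjusted p = 9.89e-06; reduced fit 5.095, adjusted p = 5.34e-05). Its neighbour LOC_Os07g08150 (chromosome 7, 4143340 to 4144573) rose from 14.6, 25.7 and 3.25 to 447, 473 and 549 CPM (log2 5.08 ± 0.73, adjusted p = 0.000152; reduced fit 4.59, adjusted p = 0.000383). LOC_Os01g14410 (chromosome 1, 8061858 to 8062908) rose from 18.3, 25.4 and 5.24 to 489, 501 and 627 CPM (log2 5.05 ± 0.62, adjusted p = 4.48e-05; reduced fit 4.604, adjusted p = 0.00014). In each of the 3, 5DAF replicate 3 was the lowest of all libraries. The tandem pair on chromosome 7 may share reads, so the split of its counts is uncertain. The remaining LOC_Os05g08110 stayed low (log2 -0.26, adjusted p = 0.836), and LOC_Os02g16560 was listed at 0 in all 6 WT libraries.

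Of 8 carotenoid synthesis genes, a group picked after its values were seen, 2 were called higher and 2 lower (3 and 2 in the reduced fit), with a median log2 of 0.04. The shares over all genes were 7.57% higher and 9.15% lower (6.27% and 8.63% in the reduced fit). LOC_Os12g43130, a phytoene synthase, the first enzyme committed to carotenoids, rose from 1.45, 3.22 and 2.32 to 102, 109 and 74.1 CPM (log2 5.35 ± 0.44, adjusted p = 1.28e-06; reduced fit 5.34, adjusted p = 1.34e-05). LOC_Os04g37619, a zeaxanthin epoxidase of the xanthophyll cycle, rose from 1079.8, 793 and 665 to 2018, 2241 and 1942 CPM (log2 1.29 ± 0.25, adjusted p = 0.00164; reduced fit 1.11, adjusted p = 0.00951). The 2 lower genes were the lycopene epsilon cyclase LOC_Os01g39960, with log2 -1.76, and another phytoene synthase, LOC_Os06g51290, with log2 -0.92 (adjusted p = 0.00077 and 0.0394). A pair of thylakoid FtsH proteases, which degrade damaged photosystem II, had smaller changes. LOC_Os06g51029 (OsFtsH1) measured 1236, 1237 and 825 and 1914, 1989 and 2174 CPM (log2 0.88, adjusted p = 0.0163; reduced fit 0.69, adjusted p = 0.0759) and LOC_Os06g45820 (OsFtsH2) 1158, 1036 and 628 and 1587, 1850.2 and 1922 CPM (log2 0.93, adjusted p = 0.0128; reduced fit 0.68, adjusted p = 0.0568). Both calls were lost without 5DAF replicate 3 (adjusted p = 0.0759 and 0.0568), without 15DAF replicate 2 (0.0559 and 0.0546) and without 15DAF replicate 3 (0.0639 and 0.0514).

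**Figure D3:**
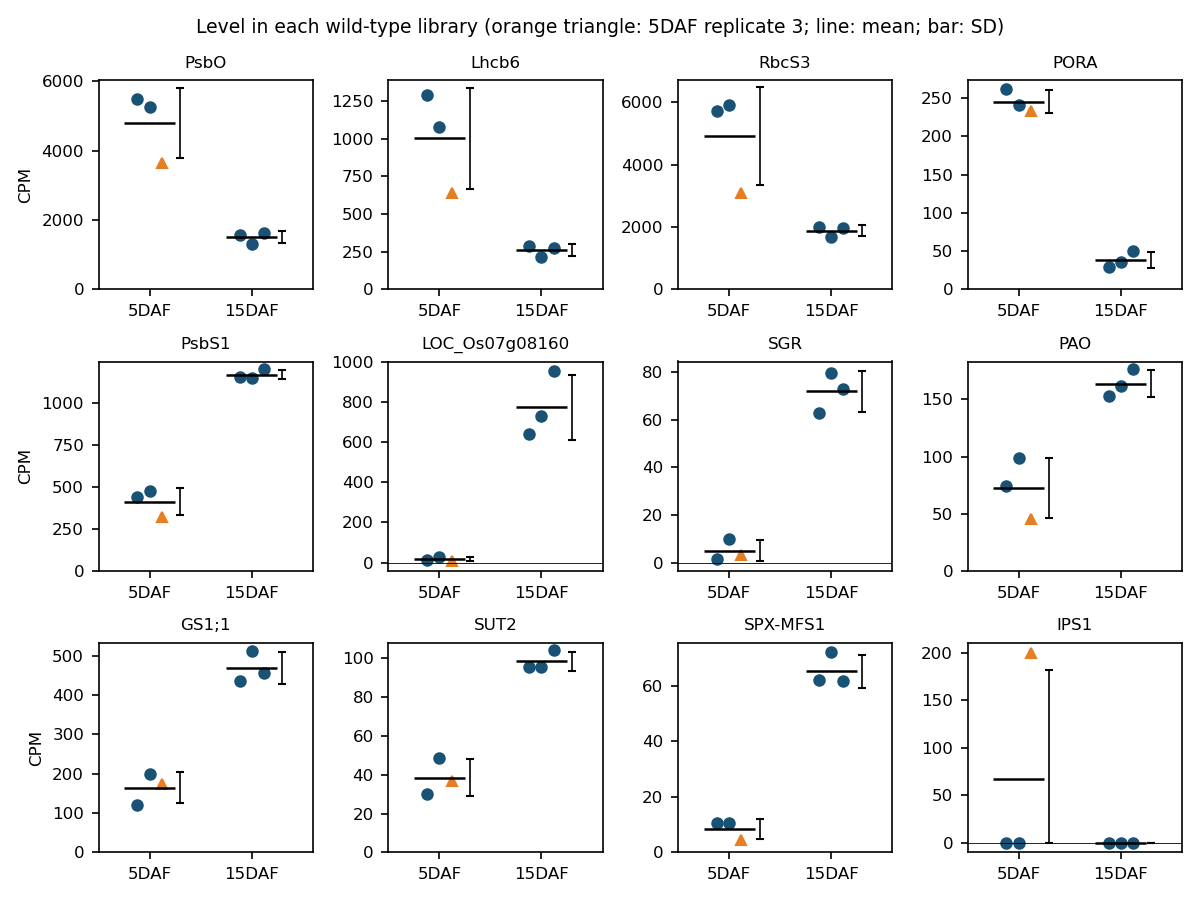
Each panel shows 1 gene in the 6 wild-type libraries, with CPM on the y axis and stage on the x axis; points are libraries, the line is the mean, the bar is 1 SD (ended at 0 where it would pass below), and the orange triangle is 5DAF replicate 3. PsbO, Lhcb6, RbcS3 and PORA are lower at 15DAF, the next 7 genes are higher with no overlap, and IPS1 is high in the triangle alone.

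Genes that move nitrogen changed in opposite ways. Of 11 nitrogen assimilation and remobilisation genes, 2 were called higher and 2 lower (18.2% each), against 7.57% and 9.15% over all genes. The median was 0.02, and without 5DAF replicate 3 there were 2 higher and 3 lower. Without 15DAF replicate 1 there was 1 lower, and without 5DAF replicate 2 there were 3 higher. GS1;1, cytosolic glutamine synthetase, which makes glutamine for export, rose from 121, 199 and 173 to 435, 512 and 456 CPM (log2 1.51 ± 0.23, adjusted p = 0.000247; reduced fit 1.53, adjusted p = 0.000846). PPDK, pyruvate phosphate dikinase, linked to amino acid interconversion in ageing leaves of Arabidopsis, rose from 128, 137 and 101 to 232, 276 and 248 CPM (log2 1.05 ± 0.17, adjusted p = 0.000525; reduced fit 0.91, adjusted p = 0.00304). On the assimilation side, nitrite reductase NIR1 fell from 227, 90.6 and 123 to 50.2, 36.5 and 52.4 CPM (log2 -1.66 ± 0.36, adjusted p = 0.00452; reduced fit -1.81, adjusted p = 0.00522). NADH-GOGAT1 fell from 59.9, 44.3 and 68.7 to 29.0005, 34.3 and 28.4 CPM (log2 -0.92 ± 0.24, adjusted p = 0.015; reduced fit -0.797, adjusted p = 0.0486; 0.0532 without 15DAF replicate 1). The chloroplast forms GS2 and Fd-GOGAT, which refix photorespiratory ammonium, had log2 -0.03 and 0.35 and were not called.

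Proteases and transporters were mixed. Of 42 tested cysteine and subtilisin proteases, 3 were called higher (7.14%) and 7 lower (16.7%), against 7.57% and 9.15% over all genes (median -0.50). Without 5DAF replicate 3 there were 4 higher (8.89%) and 2 lower (4.44%), against 6.27% and 8.63%. Without 15DAF replicate 1 there were 4 lower. The abundant oryzains, papain-type proteases of rice, rose: LOC_Os04g55650 (oryzain alpha) from 890.4, 1205 and 729 to 1627, 1828 and 1984 CPM (log2 0.95 ± 0.22, adjusted p = 0.00604; reduced fit 0.77, adjusted p = 0.0273) and LOC_Os09g27030 (oryzain gamma) from 1315, 1638 and 1307 to 2112, 2168 and 2472 CPM (log2 0.66 ± 0.16, adjusted p = 0.00707; reduced fit 0.59, adjusted p = 0.0242). The subtilisin gene LOC_Os02g17090 fell from 1.52, 3.45 and 9.81 to 0.214, 0.408 and 0.976 CPM (log2 -3.14 ± 0.73, adjusted p = 0.007; reduced fit -2.17, adjusted p = 0.0437), and 5DAF replicate 3 was its highest library. LOC_Os03g02750 (OsSub25) had no counts in any 5DAF library and 50 over the 15DAF libraries, at least 14.7-fold higher with 3 counts over the group taken as the floor. No autophagy gene of 12 was called in either direction by edgeR with or without replicate 3. Among all genes, 16.7% were called with that replicate and 14.9% without it. DESeq2 called 1 autophagy gene higher, and the median of the list was 0.31.

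Of 124 amino acid and peptide transporters, 12 were called higher (9.68%) and 18 lower (14.5%), against 7.57% and 9.15% over all genes. The median was -0.34. Without 5DAF replicate 3 there were 6 higher (4.84%) and 16 lower (12.9%), against 6.27% and 8.63%. The higher count was 7, 7 and 6 without 5DAF replicate 1, 2 or 3 and 5 without any 1 of the 15DAF libraries; the lower count was 10 without 15DAF replicate 2. The amino acid permease LOC_Os01g71760 rose from 0.828, 2.38 and 1.46 to 9.33, 8.705 and 10.03 CPM (log2 2.59 ± 0.54, adjusted p = 0.00314; reduced fit 2.53, adjusted p = 0.0123). The peptide transporter LOC_Os01g65140 fell from 8.14, 5.75 and 14.4 to 1.85, 1.7002 and 2.49 CPM (log2 -2.22 ± 0.48, adjusted p = 0.00427; reduced fit -1.801, adjusted p = 0.0185). Both kept their calls in all 6 fits without a WT library. Of 13 metal transporter and nicotianamine synthesis genes, LOC_Os03g29850 alone was called (log2 -0.69, adjusted p = 0.0496; reduced fit -0.75, adjusted p = 0.0613), and 0 were called without 5DAF replicate 3 or without 15DAF replicate 2 or 3 (adjusted p of that gene 0.0613, 0.149 and 0.112). It also lost its call, to adjusted p of 0.179 and 0.0776, without 5DAF replicate 2 or 15DAF replicate 1.

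Some starch and sucrose genes rose. Of 25 starch and sucrose genes, 5 were called higher (20%) and 1 lower (4%), against 7.57% and 9.15% over all genes. The median was 0.33. Without 5DAF replicate 3 there were 3 higher (12%) and 2 lower (8%), against 6.27% and 8.63%. The higher count was 3 also without 5DAF replicate 1, 15DAF replicate 2 or 15DAF replicate 3, and the single lower gene was lost without 5DAF replicate 2 or any 1 of the 15DAF libraries. SUT2, a sucrose transporter of the vacuole membrane in rice, rose from 29.8, 48.5 and 36.9 to 95.1, 95.5 and 104 CPM (log2 1.36 ± 0.18, adjusted p = 9.48e-05; reduced fit 1.31, adjusted p = 0.000616). SPS1, sucrose-phosphate synthase, rose from 41.5, 67.9 and 37.5 to 107, 115 and 101 CPM (log2 1.13 ± 0.18, adjusted p = 0.000422; reduced fit 0.95, adjusted p = 0.00196). SSI, a soluble starch synthase, rose from 10.1, 21.5 and 22.2 to 45.8, 63.4 and 70.9 CPM (log2 1.74 ± 0.34, adjusted p = 0.00193; reduced fit 1.91, adjusted p = 0.00312).

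The 3 genes kept their calls in all 6 fits without a WT library. None overlapped between stages, as held for nearly all called genes. AGPS1, annotated as an ADP-glucose pyrophosphorylase subunit, had log2 1.38 (adjusted p = 0.0225; reduced fit 1.15, adjusted p = 0.0901), lost without 5DAF replicate 1 or 3 or 15DAF replicate 2 or 3 (adjusted p = 0.075, 0.0901, 0.0657 and 0.0804). The phloem sucrose transporter SUT1 measured 20.4, 33.9 and 27.7 and 29.6, 42.6 and 30.9 CPM and was not called (log2 0.33, adjusted p = 0.617; reduced fit 0.32, adjusted p = 0.69). The triose phosphate translocator TPT, which exports fixed carbon from the chloroplast, was called lower only without replicate 3 (log2 -0.89, adjusted p = 0.0122; -0.66 and 0.061 with all libraries).

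Several phosphate genes depended on 5DAF replicate 3. Of 25 phosphate transport and starvation-response genes, 1 was called higher (4%) and 6 lower (24%), against 7.57% and 9.15% over all genes (median -0.32). Without 5DAF replicate 3 there were 2 higher (8%) and 4 lower (16%), against 6.27% and 8.63% (median -0.10). The lower count was 4 without 15DAF replicate 1 or 3 and 3 without 15DAF replicate 2. PHF1, which helps phosphate transporters leave the endoplasmic reticulum, fell from 100.4, 93.5 and 80.5 to 39.8, 40.6 and 39.4 CPM (log2 -1.195 ± 0.13, adjusted p = 9.94e-06; reduced fit -1.304, adjusted p = 1.84e-05). SQD2, which makes the phosphorus-free sulfolipid of the thylakoid, fell from 247, 207 and 189 to 99.4, 91.9 and 92.4 CPM (log2 -1.18 ± 0.16, adjusted p = 0.0001; reduced fit -1.29, adjusted p = 0.000148). SPX-MFS1, a vacuolar phosphate transporter of the SPX-MFS family, rose from 10.6, 10.4 and 4.31 to 61.8, 71.95 and 61.5 CPM (log2 2.95 ± 0.35, adjusted p = 3.32e-05; reduced fit 2.604, adjusted p = 0.000137).

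Those 3 genes, like nearly all called genes, did not overlap between stages. They kept their calls in all 6 fits without a WT library. SQD1, acting before SQD2, was called lower (log2 -0.93, adjusted p = 0.0179; reduced fit -1.18, adjusted p = 0.0033), but not without 5DAF replicate 1 or 2 or 15DAF replicate 2 (adjusted p = 0.0671, 0.0653 and 0.0835). PT1, a phosphate transporter, had log2 -0.92 (adjusted p = 0.0291; 0.0229 without 5DAF replicate 3) and lost its call without 5DAF replicate 2 or any 1 of the 15DAF libraries (adjusted p = 0.111, 0.0684, 0.0848 and 0.0863).

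IPS1, a noncoding RNA that rises when phosphate is short, measured 0, 0.0766 and 199.98 CPM at 5DAF, against 0, 0 and 0.38 CPM at 15DAF. Its fall with all libraries (log2 -8.75 ± 2.11, adjusted p = 0.00877) came through 1 library: without replicate 3 the log2 fold change was 1.77 (adjusted p = 0.714). SPX1, an intracellular phosphate sensor, measured 20.7, 19.5 and 102 and 15.5, 17.9 and 16.7 CPM, with log2 -1.51 (adjusted p = 0.0394) against -0.29 (adjusted p = 0.581) without replicate 3. Its call was also lost without 15DAF replicate 1, 2 or 3 (adjusted p = 0.116, 0.101 and 0.0947). SPX-MFS2 showed the reverse, with 69.5, 52.6 and 371 CPM at 5DAF, against 204, 268 and 203 CPM at 15DAF: it was called higher only without replicate 3 (log2 1.85, adjusted p = 0.000116; 0.45 and 0.583 with all libraries). The central regulator PHR2 measured 81.6, 83.5 and 96.6 and 86.1, 85.3 and 89.6 CPM and was not called (log2 -0.00, adjusted p = 0.992; reduced fit 0.05, adjusted p = 0.881).

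Few clock and flowering genes were called. Of 9 circadian clock genes, 1 was called lower (11.1%, against 9.15% over all genes) and 0 higher. LUX of the evening complex fell from 103, 129 and 86.97 to 59.3, 53.2 and 65.7 CPM (log2 -0.84 ± 0.19, adjusted p = 0.00629). In the reduced fit LUX had log2 -0.98 (adjusted p = 0.00304). Without 5DAF replicate 3, ELF3-1 was called too (log2 -0.63, adjusted p = 0.0308), and without 5DAF replicate 2 there were 2 lower and 1 higher. LHY, a morning gene, had log2 0.59 (adjusted p = 0.0782; reduced fit 0.33, adjusted p = 0.303; 0.0142 without 5DAF replicate 2) and GI, an afternoon gene, 0.105 (adjusted p = 0.814). PRR73 differed most among the early libraries, with 229, 98.5 and 656 CPM against 196, 242 and 162 CPM later (adjusted p = 0.289; 0.0266 without 5DAF replicate 2). The labels give no time of day. Of 7 flowering regulators edgeR called 0, against 16.7% of all genes in either direction, and DESeq2 called 0. The florigen gene Hd3a had 24.6, 48.2 and 13.9 and 11.3, 17.9 and 14.1 CPM and was called lower only without 5DAF replicate 3 (log2 -1.35, adjusted p = 0.0338; 0.126 with all). Of 5 tested grain markers, the endosperm transcription factor RPBF was called higher at a low level, with 0.138, 0.996 and 0.331 and 2.49, 2.38 and 3.09 CPM (log2 2.45, adjusted p = 0.0175; reduced fit 2.22, adjusted p = 0.0616). That call was lost without 5DAF replicate 1 or 3 or 15DAF replicate 3 (adjusted p = 0.0697, 0.0616 and 0.0535).

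Of 101 tested heat shock protein genes, 27 were called higher (26.7%) and 5 lower (4.95%), against 7.57% and 9.15% over all genes, while the other 69 were not called, with a median of 0.21, and 23 higher and 6 lower without 5DAF replicate 3. The lower count was 3 without 5DAF replicate 1, 15DAF replicate 1 or 15DAF replicate 2. The DnaK (HSP70) gene LOC_Os03g16860 rose from 85.7, 121 and 121 to 778, 602 and 511 CPM (log2 2.53 ± 0.29, adjusted p = 2.09e-05; reduced fit 2.59, adjusted p = 0.000138). Another, LOC_Os05g38530, rose from 4.48, 8.66 and 8.42 to 71.2, 54.9 and 55.9 CPM (log2 3.08 ± 0.31, adjusted p = 7.4e-06; reduced fit 3.19, adjusted p = 4.06e-05). A further one, LOC_Os01g62290, rose from 5.17, 11.95 and 13.9 to 67.5, 46.7 and 43.5 CPM (log2 2.35 ± 0.31, adjusted p = 8.91e-05; reduced fit 2.61, adjusted p = 0.000154). In these 3 genes 5DAF replicate 3 lay in the middle or at the top of its group. LOC_Os06g14240, a small heat shock protein gene, rose from 1.66, 0.843 and 0.663 to 15.6, 8.297 and 6.07 CPM (log2 3.23 ± 0.49, adjusted p = 0.000263; reduced fit 2.95, adjusted p = 0.00175). The 5 lower genes were 4 described as DnaJ co-chaperones and the U-box gene LOC_Os06g06470, with log2 between -1.06 (LOC_Os01g42190) and -0.52 (LOC_Os08g03380).

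Of 242 ribosomal protein genes, found by their descriptions, 28 were called lower (11.6%, near the 9.15% over all genes) and 1 higher, with a median of -0.16, and 26 lower and 0 higher without 5DAF replicate 3. The lower count was 16 without 15DAF replicate 2. The single higher call was lost in each fit without a WT library. The largest falls were in genes whose names do not mention the cytosolic 40S or 60S subunit. LOC_Os05g49320 (L7/L12) fell from 20.3, 22.1 and 28.1 to 4.204, 5.85 and 8.57 CPM (log2 -1.91 ± 0.34, adjusted p = 0.000904; reduced fit -1.79, adjusted p = 0.003). LOC_Os03g15870 (L4) fell from 248, 209 and 145 to 89.6, 65.97 and 80.6 CPM (log2 -1.35 ± 0.24, adjusted p = 0.00103; reduced fit -1.56, adjusted p = 0.000483). Among the genes named for the cytosolic 40S and 60S subunits, the largest called fall was -0.62, in LOC_Os02g37862 (60S L6). Of 47 histone genes, 3 were called higher and 3 lower (6.38% each), against 7.57% and 9.15% over all genes, and 3 and 4 in the reduced fit. LOC_Os03g14669 fell from 463, 394 and 212 to 87.9, 94.3 and 127 CPM (log2 -1.79 ± 0.37, adjusted p = 0.00316; reduced fit -2.08, adjusted p = 0.00116); the higher count was 1 without 5DAF replicate 1 or any 1 of the 15DAF libraries.

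Of 56 NAC genes, 7 were called higher (12.5%) and 3 lower (5.36%), against 7.57% and 9.15% over all genes. Without 5DAF replicate 3 there were 7 and 1, and 1 was lower also without 5DAF replicate 1 or any 1 of the 15DAF libraries. LOC_Os03g60080, NAC domain-containing protein 67, rose from 14.2, 16.5 and 18.4 to 74.5, 73.5 and 71.3 CPM (log2 2.16 ± 0.25, adjusted p = 2.83e-05; reduced fit 2.23, adjusted p = 0.00014), with tight groups at both stages. Of 68 WRKY genes, 5 were called higher (7.35%) and 6 lower (8.82%), near the shares over all genes, and 3 and 4 without 5DAF replicate 3. The WRKY counts were 3 higher without 5DAF replicate 1 or 15DAF replicate 2 and 2 without 15DAF replicate 1. They were 3 lower without 5DAF replicate 2 or 15DAF replicate 1, 1 without 15DAF replicate 2 and 2 without 15DAF replicate 3. LOC_Os08g38990 (WRKY30) fell from 7.79, 4.52 and 4.11 to 0.855, 1.36 and 1.52 CPM (log2 -2.12 ± 0.41, adjusted p = 0.00202; reduced fit -2.32, adjusted p = 0.00178) and LOC_Os01g40260 (WRKY77) rose from 13.4, 8.12 and 10.9 to 32.3, 31.96 and 26.1 CPM (log2 1.48 ± 0.31, adjusted p = 0.00363; reduced fit 1.46, adjusted p = 0.0135). Of 47 AP2/ERF genes, 1 was called higher (2.13%) and 6 lower (12.8%), against 7.57% and 9.15% over all genes, and 1 and 5 in the reduced fit. Of the AP2/ERF genes, 2 were lower without 5DAF replicate 2, and 0 were higher and 1 lower without 15DAF replicate 1 or 2. Their largest fall, in LOC_Os03g08490 (log2 -2.42, adjusted p = 0.0111; reduced fit -2.12, adjusted p = 0.0345), was not called without 15DAF replicate 2 (adjusted p = 0.0618).

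Defence genes were called lower to different extents. Of 33 pathogenesis-related genes, 13 were called lower and 1 higher, against a background of 9.15% and 7.57%, with a median of -1.16; without 5DAF replicate 3 there were 12 and 1, and without 5DAF replicate 2 there were 12 and 3. The thaumatin-like gene LOC_Os03g46070 fell from 110.03, 71.7 and 115 to 22.3, 31.6 and 29.1 CPM (log2 -1.84 ± 0.39, adjusted p = 0.00368; reduced fit -1.75, adjusted p = 0.00991), and its neighbour by number LOC_Os03g46060 from 33.04, 35.6 and 28.2 to 6.56, 11.4 and 8.35 CPM (log2 -1.88 ± 0.39, adjusted p = 0.00331; reduced fit -1.99, adjusted p = 0.00449). The list also holds chitinases, which cut fungal cell walls: CHIT1 (LOC_Os02g39330), CHIT12 (LOC_Os08g41100) and CHIT16 (LOC_Os03g04060) fell by 1.337, 1.198 and 1.156 on the log2 scale, while CHIT15 (LOC_Os10g39700) rose by 1.48. As a whole the list held 0.139, 0.155 and 0.263% of counts at 5DAF and 0.0905, 0.111 and 0.0946% at 15DAF, highest in 5DAF replicate 3.

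Of 39 class III peroxidases, secreted enzymes of the cell wall, 12 were called lower (30.8%) and 2 higher (5.13%), against 9.15% and 7.57% over all genes. The median was -0.98, and without 5DAF replicate 3 there were 14 and 3. LOC_Os02g14440 fell from 138, 32.1 and 102 to 0, 0.884 and 0.325 CPM (log2 -7.79 ± 0.78, adjusted p = 6.24e-06; reduced fit -7.73, adjusted p = 1.91e-05). LOC_Os06g20150 fell from 10.8, 8.28 and 21.9 to 0.998, 1.496 and 1.302 CPM (log2 -3.43 ± 0.46, adjusted p = 0.000102; reduced fit -2.93, adjusted p = 0.000304). Of 219 receptor-like kinases, which sense signals at the cell surface, 11 were called higher and 34 lower (15.5%, against 9.15% over all genes), and 13 and 24 of 221 in the reduced fit (10.9% lower, against 8.63%). The lower count was 22 without 15DAF replicate 1 and 19 without 15DAF replicate 2; the higher count was 7 in each of these fits. LOC_Os11g39450, a cysteine-rich receptor-like kinase, fell from 3.66, 4.21 and 2.12 to 0.356, 0 and 0.271 CPM (log2 -3.93 ± 0.84, adjusted p = 0.00369; reduced fit -4.19, adjusted p = 0.00331).

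Of 127 intracellular NBS-LRR receptors, 13 were called higher (10.2%) and 6 lower (4.72%), near the 7.57% higher over all genes, with a median of 0.04. In the reduced fit 5 were called higher and 6 lower, and the higher count was 5 also without 15DAF replicate 1 or 15DAF replicate 2, and 6 without 5DAF replicate 1. Their largest change was a fall in LOC_Os11g39160, from 33.5, 32.3 and 14.4 to 2.85, 1.22 and 1.74 CPM (log2 -3.79 ± 0.598, adjusted p = 0.000358; reduced fit -4.11, adjusted p = 0.000266). Of 16 terpene synthases, 1 was called higher (6.25%) and 3 lower (18.75%), against 7.57% and 9.15% over all genes, with 1 lower without 15DAF replicate 1. The higher count was 0 without 5DAF replicate 1 or 2 or 15DAF replicate 1 or 2, and 2, with 2 lower, in the reduced fit. LOC_Os01g42610 fell from 5.59, 1.38 and 9.74 to 0.57, 0.272 and 0.38 CPM (log2 -3.76 ± 0.69, adjusted p = 0.00132; reduced fit -3.12, adjusted p = 0.00523). Of 52 glutathione S-transferases, 5 were called higher (9.62%) and 6 lower (11.5%), near the shares over all genes, and 4 and 6 in the reduced fit. There were 9 higher without 5DAF replicate 2 and 3 lower without 15DAF replicate 1 or 2. LOC_Os03g50130, a microsomal member, rose from 27.9, 47.8 and 27.9 to 157, 178 and 159 CPM (log2 2.25 ± 0.21, adjusted p = 3.06e-06; reduced fit 2.101, adjusted p = 2.72e-05), and LOC_Os10g38610 from 10.3, 16.8 and 7.62 to 78.02, 76.3 and 86.01 CPM (log2 2.796 ± 0.36, adjusted p = 6.56e-05; reduced fit 2.55, adjusted p = 0.000402).

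Water channel and wall genes were called in both directions. Of 24 aquaporins, 4 were called higher and 4 lower (16.7% each), against 7.57% and 9.15% over all genes. Without 5DAF replicate 3 there were 6 and 4. LOC_Os05g14240 fell from 493, 446 and 447 to 89.3, 83.2 and 120.3 CPM (log2 -2.24 ± 0.32, adjusted p = 0.000152; reduced fit -2.29, adjusted p = 0.000358), while LOC_Os01g74450 rose from a mean of 139 to 425 CPM (log2 1.61, adjusted p = 0.00439). Of 43 expansin and cell wall synthesis genes, 5 were called higher and 5 lower (11.6% each, near the shares over all genes). Without 5DAF replicate 3 there were 5 and 4. The cellulose synthase-like gene LOC_Os04g35030 (CSLH3) rose from 8.97, 22.1 and 11.998 to 55.4, 48.2 and 49.8 CPM (log2 1.84 ± 0.41, adjusted p = 0.00528; reduced fit 1.71, adjusted p = 0.0225), and the beta-expansin LOC_Os08g37930 fell from 8.76, 3.68 and 3.18 to 0.214, 0.34 and 0.38 CPM (log2 -4.01 ± 0.68, adjusted p = 0.000698; reduced fit -4.301, adjusted p = 0.000629). Of 75 cyclin and cell division genes, 3 were called higher (4%) and 4 lower (5.33%), below the shares over all genes. The counts of these genes were 4 and 5 without 5DAF replicate 3, and 1 and 4 without 5DAF replicate 1. Their largest fall was in the kinesin LOC_Os05g44560, from 47.9, 21.3 and 52.3 to 7.13, 10.5 and 5.04 CPM (log2 -2.43 ± 0.46, adjusted p = 0.00169; reduced fit -2.24, adjusted p = 0.00522).

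**Figure D4:**
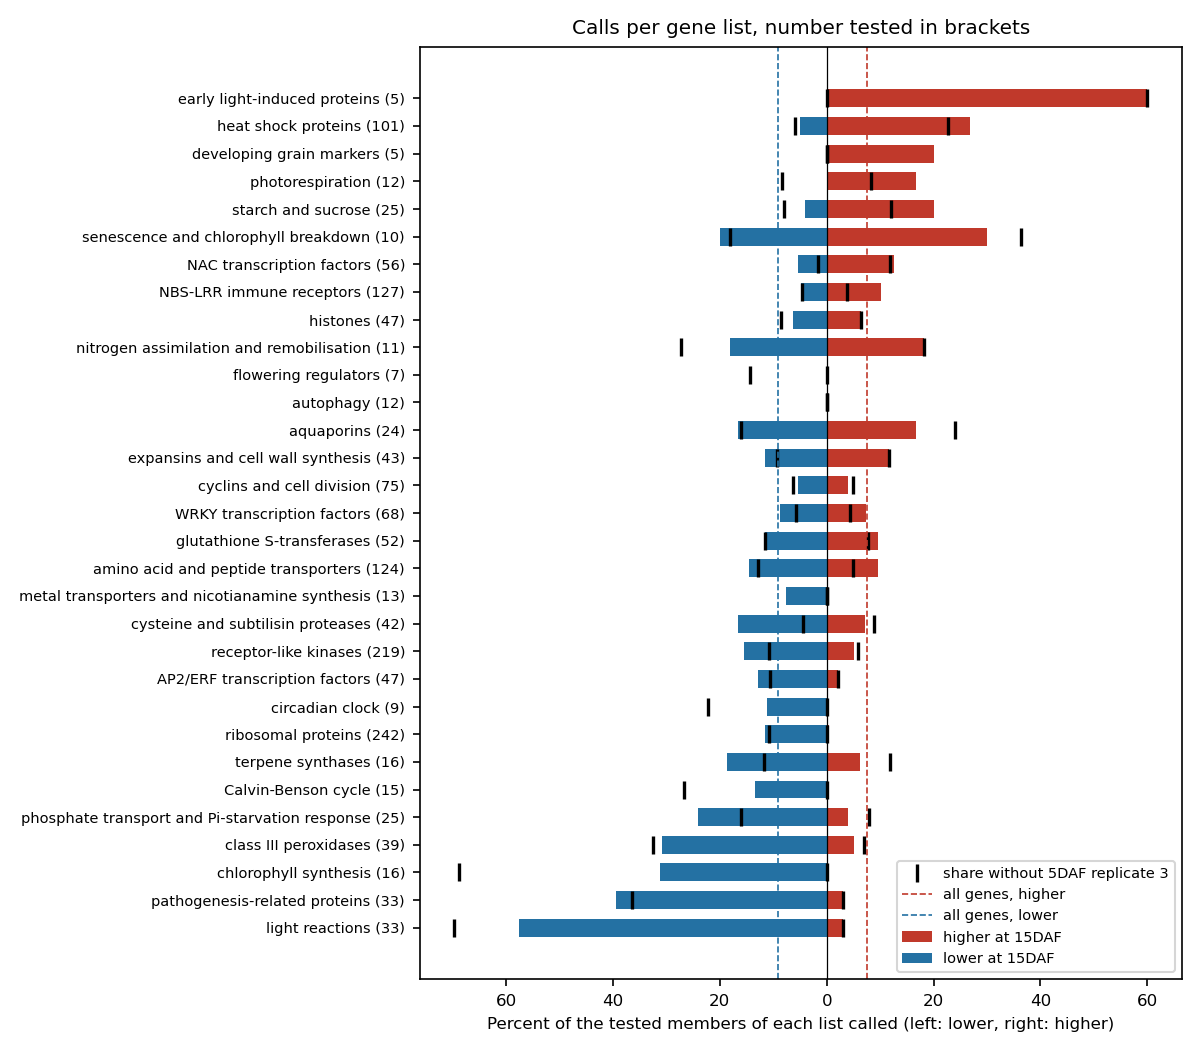
Bars show, for each gene list with its number of tested genes in brackets, the percent called higher (red, right) and lower (blue, left) at 15DAF with all libraries; black ticks give the shares without 5DAF replicate 3 and dashed lines the shares over all genes, 7.57% higher and 9.15% lower. Light reactions (57.6%), pathogenesis-related proteins (39.4%), chlorophyll synthesis (31.2%) and class III peroxidases (30.8%) reach furthest left, and early light-induced proteins (3 of 5), senescence and chlorophyll breakdown (3 of 10) and heat shock proteins (26.7%) furthest right.

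Beyond the lists, the genes with the largest changes called in both fits had mostly low levels. Among the lowest, LOC_Os09g36680, a ribonuclease T2 family member, fell from 485, 786 and 3515 to 21.3, 23.9 and 13.4 CPM (log2 -6.35 ± 1.21, adjusted p = 0.00164). Replicate 3 held several times more than the other early libraries, and without it the log2 fold change was -5.04. The glycosyl hydrolase LOC_Os05g15770 rested on that library even more, with 9.11, 5.75 and 345 CPM at 5DAF, against 0, 0.204 and 1.08 CPM at 15DAF (log2 -7.96 with it and -3.97 without, both called). LOC_Os09g19510 and LOC_Os09g19500, receptor kinases described as senescence-induced, both fell. The former measured 10.1, 2.61 and 38.05 and 0, 0 and 0.217 CPM (log2 -7.53 ± 1.16, adjusted p = 0.000304; reduced fit -6.16, adjusted p = 0.000575).

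LOC_Os09g19500 measured 5.59, 1.15 and 21.2 and 0, 0.408 and 0 CPM (log2 -6.09 ± 1.04, adjusted p = 0.00074; reduced fit -4.66, adjusted p = 0.00194). The helix-loop-helix gene LOC_Os01g72370 and the glutaredoxin LOC_Os11g43520 (OsGrx_C17) had no counts at 15DAF, and were at least 38.3-fold and 35.5-fold lower there with 3 counts over the group taken as the floor. LOC_Os02g50740, a WD-domain gene, had 260 counts at 5DAF and 1 at 15DAF (counting interval of the ratio 51.2 to 11408, exact 95%). LOC_Os12g44050, a purple acid phosphatase, had 117 and 2 counts (interval 17.5 to 541), LOC_Os06g03890, an alpha-L-fucosidase, 99 and 2 (14.8 to 459), and LOC_Os11g38210, a DUF538 gene, 119 and 3 (14.7 to 216). These intervals cover counting error only.

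Among the highest, LOC_Os02g04510 (UOS1) rose from 6.42, 6.82 and 2.92 to 243, 291 and 131 CPM (log2 5.37 ± 0.47, adjusted p = 1.68e-06; reduced fit 5.04, adjusted p = 1.41e-05). LOC_Os03g17460, described as IN2-1, rose from 0.069, 0.536 and 0.795 to 22.7, 20.3 and 14.5 CPM (log2 5.33 ± 0.73, adjusted p = 0.000112; reduced fit 5.97, adjusted p = 0.000314). The efflux carrier LOC_Os11g03484, of the MATE family, rose from 0.207, 0 and 0.0663 to 10.05, 10.9 and 7.701 CPM (log2 6.55 ± 0.85, adjusted p = 0.00011; reduced fit 6.33, adjusted p = 0.000784). LOC_Os03g19370, a transcript with a conserved upstream reading frame, and LOC_Os05g33700, a 4F5 family gene, had no counts at 5DAF and were at least 126.9-fold and 37.4-fold higher at 15DAF against the same floor. Others had 1 or 2 counts at 5DAF: the annexin LOC_Os09g20330 went from 1 to 99 counts (interval of the ratio 15.7 to 3569), and the syntaxin LOC_Os06g39050 and the cytochrome b5-like LOC_Os02g42740 each from 2 to 107 (13.1 to 404).

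Several abundant genes outside the lists changed too. LOC_Os01g01340, a light-induced protein 1-like gene, fell from 13736, 12491 and 10884 to 3998, 3531 and 5141 CPM (log2 -1.55 ± 0.28, adjusted p = 0.00121; reduced fit -1.66, adjusted p = 0.0013). LOC_Os07g34570, an FAD-dependent oxidoreductase, fell from 11116, 9568 and 8390.3 to 4180.4, 3314 and 5161 CPM (log2 -1.200 ± 0.25, adjusted p = 0.00289; reduced fit -1.32, adjusted p = 0.00249). The catalase gene LOC_Os02g02400 (isozyme A) fell from 4310.1, 7779 and 4255 to 981, 838 and 1406 CPM (log2 -2.34 ± 0.36, adjusted p = 0.000319; reduced fit -2.51, adjusted p = 0.000348), while CATC, described above, measured higher at 15DAF. LOC_Os02g57280, a CBS-domain membrane protein (log2 -1.34 ± 0.33), and LOC_Os12g43600, with an RNA recognition motif (log2 -1.23 ± 0.18), fell as well.

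Upward, LOC_Os04g26920, an aldo/keto reductase, had log2 1.14 (adjusted p = 0.0177; reduced fit 1.37, adjusted p = 0.0105). Its call was lost without 5DAF replicate 2 or 15DAF replicate 1 or 2 (adjusted p = 0.0712, 0.0605 and 0.0925). LOC_Os04g47360, a prolyl oligopeptidase homologue, had log2 1.29 (adjusted p = 0.0366; reduced fit 1.15, adjusted p = 0.12), lost without 5DAF replicate 2 or 3 or 15DAF replicate 1 or 2 (adjusted p = 0.133, 0.12, 0.116 and 0.153). LOC_Os03g12670, of no described product, rose from 904, 588 and 1086 to 1579, 1737 and 1372 CPM (log2 0.86, adjusted p = 0.0105; reduced fit 1.04, adjusted p = 0.00459; 0.0624 without 15DAF replicate 2).

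The same stages in OE and Ko1 show how far the wild-type change was shared. The OE libraries gave 5455 calls between stages (26.7%; 13.1% higher and 13.6% lower) and the Ko1 libraries 4102 (20.1%; 10.5% higher and 9.58% lower). Of the 1548 genes higher in WT, 1324 were called higher in OE (85.5% of the WT set and 49.6% of the OE set) and 1052 in Ko1 (68.0% and 49.0%). Of the 1870 lower in WT, 1432 were called lower in OE (76.6% and 51.5%) and 1132 in Ko1 (60.5% and 57.8%). Opposite calls were 0 and 1 in OE and 5 and 11 in Ko1. The test of the difference in stage change between OE and WT called 0 genes with edgeR, 1226 had an unadjusted p under 0.05, DESeq2 called 12, and edgeR called 3 without WT 5DAF replicate 1. Between Ko1 and WT it called 113 genes (0.553%), 94 with a more positive stage change in Ko1 (0.46%) and 19 with a more negative one (0.093%). Of these, 66 were also called without WT 5DAF replicate 3, which gave 84 in all. The count fell to 43 and 56 without Ko1 5DAF replicate 2 or 3, to 35, 37 and 52 without WT 15DAF replicate 1, 2 or 3, and to 55 without Ko1 15DAF replicate 3.

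No light-reaction gene and no early light-induced gene named above was among the 113: PsbO changed by -1.67 in WT, -2.37 in OE and -1.17 in Ko1 on the log2 scale, and LOC_Os07g08160 by 5.46, 6.75 and 6.600. Lhcb1.2 had -5.63, -5.45 and -1.71, with an adjusted p of 0.0571 for Ko1 against WT. Of 33 light-reaction genes, 19 were called lower in WT, 26 in OE and 15 in Ko1. Of 16 chlorophyll synthesis genes, 5, 11 and 0 were called lower (medians -0.85, -1.18 and 0.002). Of 15 Calvin-Benson cycle genes, 0, 0 and 4 were called higher (medians -0.12, -0.44 and 0.48). The shares over all genes were 9.15, 13.6 and 9.58% lower and 7.57, 13.1 and 10.5% higher in WT, OE and Ko1. Whether these lists differed between genotypes was not tested. PHF1, SQD1 and SQD2, which were lower at 15DAF in WT, differed from Ko1. In Ko1 SQD2 measured 238, 215 and 152 CPM at 5DAF, against 322, 322 and 350.3 CPM at 15DAF, and the difference in stage change was 1.895 (adjusted p = 0.000546). PHF1 in Ko1 measured 94.3, 98.04 and 88.2 and 77.7, 81.9 and 83.9 CPM, a difference of 0.99 (adjusted p = 0.0146).

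Among genes called in the Ko1 against WT test, 3 in each direction had the largest differences under the naming rule. The cytochrome P450 gene LOC_Os01g43750 rose in WT from 24.01, 36.2 and 27.97 to 128, 138 and 130.04 CPM (log2 2.17) and had -0.43 in Ko1 (difference -2.597, adjusted p = 0.000482). The amino acid permease LOC_Os01g42234 rose in WT from 5.93, 8.51 and 5.77 to 21.7, 21.7 and 24.4 CPM (difference -2.19, adjusted p = 0.0145). LOC_Os01g57073, an insulin-degrading enzyme homologue, had log2 0.82 in WT and -0.75 in Ko1 (adjusted p of the difference 0.00976); its WT call was lost without 15DAF replicate 2 (adjusted p = 0.051). In the other direction, LOC_Os01g58640, a nucleotide pyrophosphatase, rose in WT from 4.001, 7.66 and 7.09 to 23.3, 28.8 and 27.8 CPM (log2 2.09) and further in Ko1 (log2 5.87; adjusted p of the difference 0.000475).

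The calcium-dependent kinase-like genes LOC_Os04g43710 and LOC_Os11g02240 fell in WT, from 23.2, 10.7 and 30.8 to 1.35, 0.952 and 2.28 CPM and from 8.62, 24.4 and 7.62 to 2.49, 2.31 and 1.46 CPM. Their log2 changes were -3.79 and -2.699 in WT against -0.37 and 1.11 in Ko1 (adjusted p of the difference 0.013 and 0.0115).

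**Figure D5:**
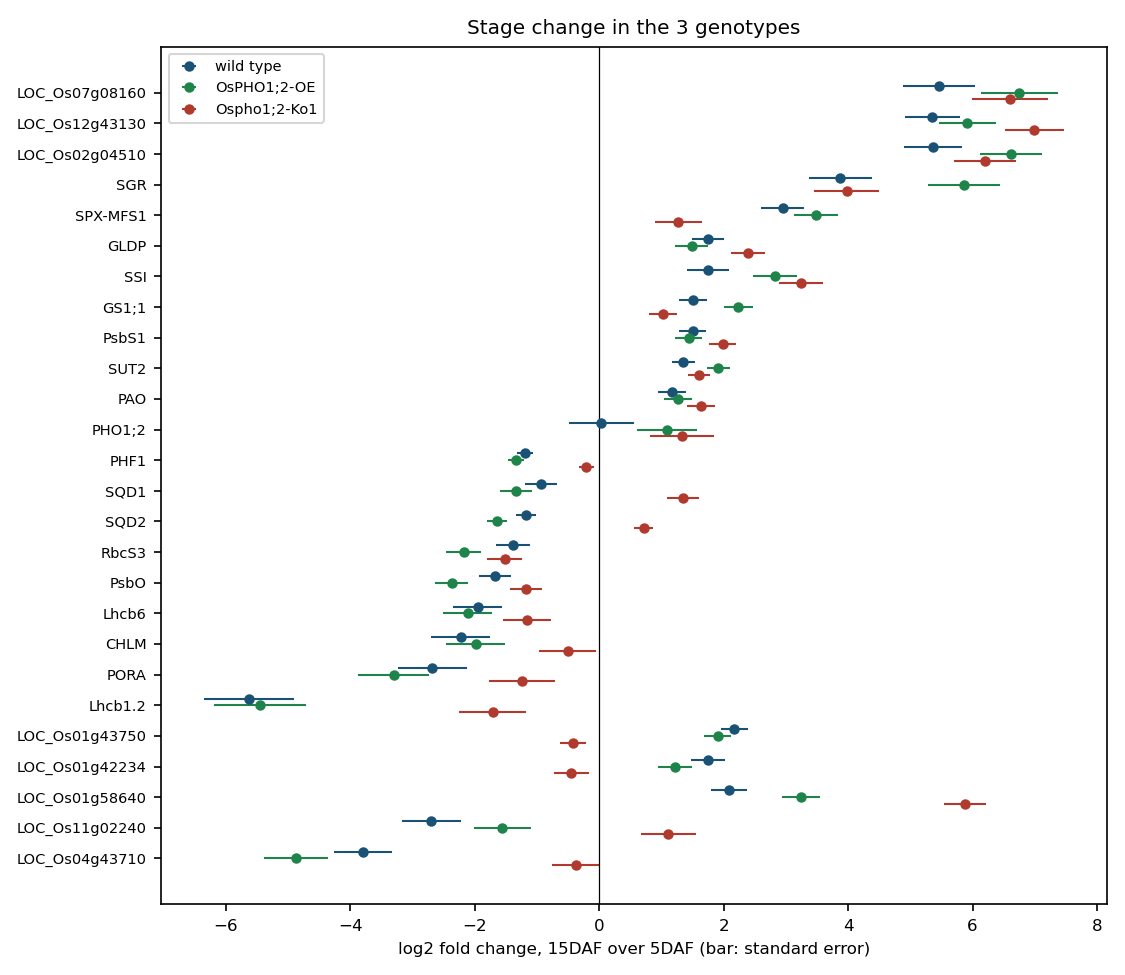
For 26 named genes the x axis gives the log2 fold change of 15DAF over 5DAF in wild type (blue), OsPHO1;2-OE (green) and Ospho1;2-Ko1 (red), with 1 standard error as the bar. The genotypes lie on the same side of 0 for the photosynthesis genes and early light-induced gene shown, while SQD1, SQD2, LOC_Os01g43750, LOC_Os01g42234 and LOC_Os11g02240 have Ko1 on the other side from wild type. The genes shown do not stand for their lists: of 16 chlorophyll synthesis genes, 8 lay above 0 in Ko1 and 2 in wild type.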

How the data were processed

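Per the labels' protocols, total RNA from flag leaves was sequenced as Illumina libraries. The deposited table holds, for 55986 rice loci, gene counts and FPKM values made by the authors. The submitters' processing notes name Bowtie 0.12.2 and the mouse build mm8, which cannot hold these rice loci; for the rice build, annotation, counter and strand setting, nothing is given in the sources used here, so close paralogues and antisense genes are uncertain. FPKM values as deposited served only for levels between genes.

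Libraries were grouped by label. All 18 entered 1 edgeR 4.0.16 quasi-likelihood fit (R 4.3.3, TMM, filterByExpr over the 6 groups, Benjamini-Hochberg over 20437 genes, adjusted p under 0.05), with contrasts for the stages of WT, OE and Ko1 and for their differences. The code was tested on simulated data for the WT stages. It called 48% of planted log2 changes of 1 and 86% of those of 2, so a gene not called may still differ. The simulation planted 100 genes of each size, drew the spread from the fitted trend and held no outlying library. Far more genes were called in the real data, so these shares describe the simulated setting only. Library correlations used log2 CPM with a prior count of 2. Tried in its place were DESeq2 1.42.0, a replicate block, RLE scaling, every gene without a low-count filter, adjusted p under 0.01, only the contrast's groups, and each library left out. No 2 libraries of a group agreed within sampling noise. The members and gene lists were chosen with earlier results of these data known. Named by rule were up to 4 called genes per list with the largest change, the 12 highest and 12 lowest genes called with and without WT 5DAF replicate 3, the 10 most abundant called in each direction and 3 per direction of each difference; other list members were named after their values were seen. The 12 highest, the 12 lowest and the genes of each difference also needed a named product, a mean of at least 1 CPM and no overlap between stages. No sequence is printed.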

Additional observations from a re-analysis of the deposited data

Results flagged for a closer look

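The test of the difference in stage change between Ko1 and WT called 113 genes, while that between OE and WT called 0 with edgeR (12 with DESeq2; 1226 at an unadjusted p under 0.05). Each gene below was picked out because its stage change (15DAF over 5DAF, log2) differed between Ko1 and WT at an adjusted p under 0.05 in edgeR's test of the difference. The values are Ko1 minus WT, and no cause was tested.

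Among the phosphate genes, the difference was 2.48 for SPX2, a phosphate sensor (adjusted p = 0.0145), which had log2 -0.12 in WT and 2.36 in Ko1. It was 1.93 for PHO2, which targets phosphate transporters for breakdown (adjusted p = 0.0441), with -0.23 in WT and 1.697 in Ko1. PAP10a, a purple acid phosphatase, differed by 2.01 (adjusted p = 0.0261) and PHF1 by 0.99 (adjusted p = 0.0146). The sulfolipid genes SQD1 and SQD2 differed by 2.28 and 1.90 (adjusted p = 0.008 and 0.000546). These 6 genes were called without WT 5DAF replicate 3 as well, with adjusted p between 0.00111 and 0.0452.

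MGD2, a galactolipid synthase, had a fitted difference of 11.03 (adjusted p = 0.00924). All WT 15DAF libraries were listed at 0, so that value depends on the prior count and is no bound, and without WT 5DAF replicate 3 the adjusted p was 0.391. AGPS2, an ADP-glucose pyrophosphorylase subunit, differed by 1.12 (adjusted p = 0.00967), with log2 -0.02 in WT and 1.102 in Ko1.

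For the genes named by the size of the difference, the values were -2.60 for the cytochrome P450 gene LOC_Os01g43750, -2.19 for the permease LOC_Os01g42234 and -1.58 for LOC_Os01g57073. They were 3.81 for LOC_Os11g02240, 3.78 for LOC_Os01g58640 and 3.42 for LOC_Os04g43710. All 6 were called without WT 5DAF replicate 3 too, with adjusted p between 0.00111 and 0.0312.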

How the results depend on the processing

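The WT count of 3418 was 4211 with DESeq2, 3414 with RLE size factors, 3248 with no low-count filter, 2786 with only the WT groups fitted and 1681 at an adjusted p under 0.01. Leaving out 1 library gave 1907 to 3114. The OE difference of 0 was 12 with DESeq2 and 0 to 3 with 1 library left out. The Ko1 difference of 113 was 296 with DESeq2, 110 with RLE, 156 with no filter, 30 with only the groups concerned, 26 at an adjusted p under 0.01 and 35 to 142 with 1 library left out. The cause was not tested. IPS1 reversed, from log2 -8.75 with all libraries to 1.77 without WT 5DAF replicate 3, the library that holds nearly all its counts; with another library left out it lay between -12.94 and -8.26. Of 163 named genes called with all libraries, RLE kept 162, no filter 161, the stricter threshold 116 and leaving out 1 library 125 to 140. Same-numbered libraries of the WT stages correlated at 0.0957, -0.105 and 0.0135 in their deviations from the stage means. With 3 libraries per stage, these values cannot settle whether the numbers pair the libraries. With a replicate block the counts were 3476 for WT, 0 for OE and 84 for Ko1, and 159 of the 163 named genes kept their call. Depth limits genes under about 1 CPM, where fold changes rest on few counts.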

Other observations

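Carotenoid synthesis and the FtsH proteases were chosen after their values were seen. The 3 phytoene synthases went separate ways. LOC_Os12g43130 rose as described, LOC_Os06g51290 had a mean of 246 ± 101 CPM (SD, n = 3) at 5DAF and 130 ± 30.6 CPM at 15DAF (log2 -0.92, and -1.18 without 5DAF replicate 3), and LOC_Os09g38320 had 6.56 ± 5.51 and 10.5 ± 1.59 CPM (log2 0.68, and 1.61 without that library, where the adjusted p was 0.00578). Lycopene epsilon cyclase LOC_Os01g39960, at the branch to lutein, had 168 ± 53.0 CPM at 5DAF and 49.7 ± 1.64 CPM at 15DAF (log2 -1.76). Lycopene beta cyclase LOC_Os02g09750, at the branch to zeaxanthin, had 24.1 ± 4.80 and 12.6 ± 3.18 CPM (log2 -0.93). Of 10 FtsH genes, 3 were called higher and 1 lower, against 7.57% and 9.15% over all genes. Without 5DAF replicate 3 there were 0 higher and 1 lower, against 6.27% and 8.63%. LOC_Os04g39190, an FtsH 4 homologue, had 80.3 ± 15.6 CPM at 5DAF and 45.9 ± 3.90 CPM at 15DAF (log2 -0.81).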
